A study of Drosophila melanogaster with 4 samples.

Results

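About 45% of the intervals that the Su(Hw) peak list places on the chromosome arms lie within 1000 bp of another interval, and together they form 868 regions of 2 to 7 intervals. The members were chosen by position alone, as the start and end of each deposited interval: on the 5 long arms (X and the left and right arms of chromosomes 2 and 3) and on chromosome 4, an interval was a member when the smaller of the gaps to its neighbours was at most 1000 bp, and chains of such gaps made one region. The rule found 2140 members among the 4760 intervals on these sequences, termed the 6 arms here, which is 44.96%. The whole list holds 4993 intervals. The other 2620 intervals on the arms had no neighbour that close and are termed isolated here. Because positions chose the members, and because width and score come out of the same peak calling, all values below are descriptions of this list and carry no test. Where an error is given it is a 95% interval, exact (Clopper-Pearson) for a share and from order statistics for a median, and it covers counting error only. Members of one region are not independent of each other, so the true uncertainty is wider.

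The list comes from chromatin immunoprecipitation with sequencing (ChIP-seq) of Drosophila melanogaster embryos aged 16 to 24 h, with 2 ChIP libraries and 2 libraries of input DNA. All 4 libraries carry the same strain label, Y cn bw sp. Their genotype is y[1] with oc[R3.2], then Gr22b[1] and Gr22d[1] together with cn[1] and also CG33964[R4.2] as well as bw[1] and sp[1], and finally LysC[1] with lab[R4.2], MstProx[1], GstD5[1] and Rh6[1]. No treatment is named for either group. The ChIP libraries were made with Su(Hw)-PG, an affinity-purified rabbit polyclonal antibody against Su(Hw). Whole embryos are a mixture of cell types, so neighbouring intervals need not be occupied in the same cells. The list gives each interval 1 score and no value per library, so there is no replicate spread, and the read depth behind an interval is unknown.

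Su(Hw), the Suppressor of Hairy-wing, is a DNA-binding protein with an array of zinc fingers. It is best known for the insulator of the gypsy retrotransposon, where a cluster of closely spaced Su(Hw) binding sites blocks an enhancer from acting on a promoter when it lies between them. There it acts with the partner proteins Mod(mdg4) and CP190. Many genomic sites outside gypsy are also bound, and most of those described hold a single binding sequence rather than a cluster. A peak caller reports stretches of enriched reads, so 1 interval may hold several binding sequences, and 1 enriched stretch may be listed as several intervals.

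Short gaps between neighbouring intervals were far more frequent than gaps just beyond 1 kb. Of the 1272 gaps inside regions, 249 were at most 100 bp, 317 were 101 to 200 bp and 252 were 201 to 300 bp. The number then fell to 148 between 301 and 400 bp and to 32 between 901 and 1000 bp. Beyond the limit it went on at a low level, with 33 gaps of 1001 to 1100 bp and 14 of 2901 to 3000 bp. The median gap inside regions was 220 bp (95% interval 210 to 232 bp). No intervals touched or overlapped: the smallest gap was 45 bp and 28 gaps were under 50 bp. Gaps of up to 500 bp made up 83.2% of those inside regions (81.0 to 85.2%).

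**Figure D1:**
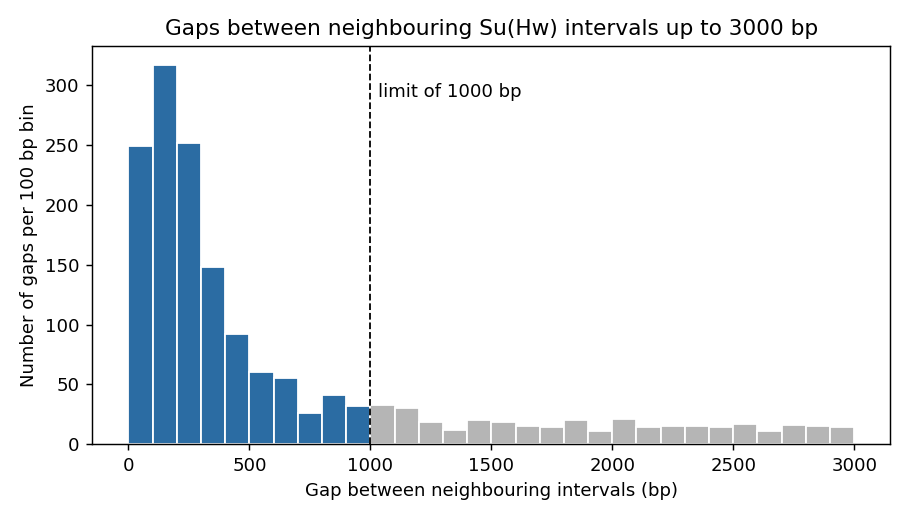
Number of gaps between neighbouring intervals on the 6 arms, in bins of 100 bp up to 3000 bp; blue bars are gaps inside regions and grey bars gaps beyond the 1000 bp limit. The bars peak at 317 for 101 to 200 bp and are level across the limit, at 32 just inside and 33 just outside. The smallest gap was 45 bp, so the first bin is filled over only part of its width.

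The limit of 1000 bp did not fall in an empty part of this distribution. The widest gap that still joined intervals was 1000 bp, on 2R, between an interval from 17002166 to 17002466 (score 11.88) and one from 17003466 to 17005608 (score 148.38). The narrowest that kept intervals apart was 1003 bp, which occurred on 2L, 2R and 3R. On 2L it separated the interval from 15611258 to 15611472 (score 11.38) from that from 15612475 to 15614905 (score 144.02). The 46 members whose smaller gap was 901 to 1000 bp had a median width of 528.5 bp and a median score of 21.02. The 36 intervals just outside, at 1001 to 1100 bp, had medians of 967 bp and 48.8. Both sets ranged widely, in score from 7.88 to 502.97 inside and from 8.33 to 524.88 outside.

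Most regions were small. Pairs accounted for 594 of the 868 regions (68.4%, 65.2 to 71.5%) and regions of 3 intervals for 183 (21.1%, 18.4 to 24.0%). A further 62 regions held 4 intervals, 21 held 5, 6 held 6 and 2 held 7. The median region spanned 2989.5 bp from first start to last end (2845 to 3166 bp), with quartiles of 1954 and 4310 bp. Median spans were 2458.5 bp for pairs, 3685 bp for regions of 3, 5447.5 bp for regions of 4 and 6758 bp for regions of 5. Intervals filled most of this length: the median region was covered to 89.1% (88.2 to 89.8%). The limit on gaps bounds the uncovered part, so coverage is not independent of the rule. With gap limits of 250 and 2000 bp it was 94.2% and 86.2%. The shortest region, a pair on 2L from 12863038 to 12863511, spanned 473 bp. The least filled was on 2R from 7525947 to 7528343, where 3 intervals with scores from 8.19 to 11.79 covered 33.7% of 2396 bp.

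A typical region consisted of 1 broad, high-scoring interval with narrow, low-scoring ones beside it. The strongest interval of each region had a median width of 1967.5 bp (1792 to 2097 bp) and a median score of 209.97 (193.2 to 224.0). The other 1272 members, termed weaker here, had a median width of 353.5 bp (342 to 371 bp) and a median score of 13.3 (12.8 to 13.6). Ranking by score fixes the direction of the difference in score, though not in width. Width and score rose together among the strongest intervals, with Spearman's rho of 0.82 over 868 regions. Choosing by score therefore also favours the wider interval, so the widths are not independent of the ranking. Ranking also raises the size of the difference, since the highest of several is set against the rest. How much of the size comes from ranking was not tested. In the median region the second interval scored 0.092 times the strongest (0.080 to 0.110), and in 452 regions (52.1%, 48.7 to 55.4%) it scored at most 0.1 times the strongest. The median ratio was 0.145 when only scores above the lower quartile entered and 0.486 for scores above the median, settings that remove most weaker intervals. The strongest interval alone made up a median of 77.2% of the covered length. It was also the widest interval in 794 regions (91.5%, 89.4 to 93.2%). In the 74 regions where it was not, the widest interval was a median of 1.30 times as wide and scored 0.71 times as high, and the strongest interval had a median score of 55.0.

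The weaker intervals formed a rather uniform class near the lower end of the list. Scores under 30 were held by 1099 of them (86.4%, 84.4 to 88.2%), and scores of 100 or more by 61 (4.80%, 3.69 to 6.12%). Among isolated intervals these shares were 41.0% (39.1 to 42.9%) and 28.5%. Setting aside the strongest of each region by itself lowers the scores of the weaker intervals. Their widths reached down to 200 bp, the narrowest width on the arms, and 84 were under 210 bp wide. Their median score stayed between 12.3 and 15.8 in regions of 2 to 6 intervals and was 16.0 for the 12 weaker intervals in the 2 regions of 7. Width and score rose together within the class, with Spearman's rho of 0.76 over 1272 intervals.

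Weaker intervals were much alike whatever the score of the leading one. Over the 5 classes of leading score from 30 upward, their median width was 352 to 377 bp and their median score 12.7 to 14.0. In the 159 regions led by a score of 100 to 200, the 220 weaker intervals had a median width of 358.5 bp and a median score of 13.6. In the 120 regions led by a score of 500 or more, 198 weaker intervals had medians of 377 bp and 14.0, although the leading interval itself was wider by far, with a median of 3482 bp against 1660 bp. The median gap was 218.5 bp in the first class and 231 bp in the second. The mean number of intervals per region was 2.16 in the 74 regions led by a score under 30, 2.38 for leading scores of 100 to 200 and 2.65 for those of 500 or more. Across the 868 regions, the strongest score and the number of intervals had a Spearman's rho of 0.19. Over the 1272 weaker intervals, the rho between their width and the score of the strongest was 0.06. Between the strongest and the second score of a region the rho was 0.16 over the 868 regions. Below a leading score of 30, which caps the score of its neighbours, the medians were 277 bp and 10.4.

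**Figure D2:**
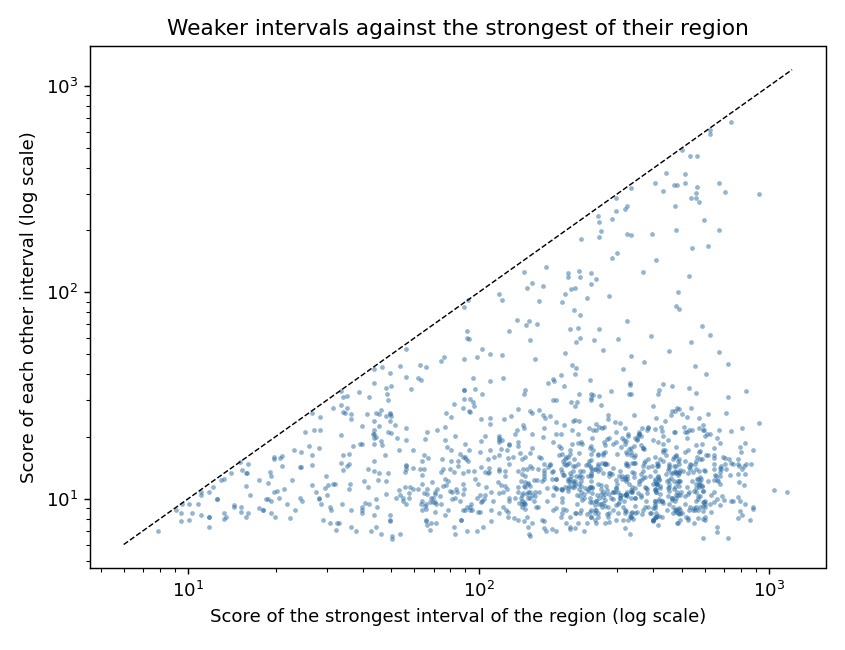
Score of each of the 1272 weaker intervals (vertical, log scale) against the score of the strongest interval of its region (horizontal, log scale); the dashed line marks equal scores, above which no point can lie. Most points form a flat band under a score of 30 at every leading score, and a sparser set of 61 lies at 100 or more.

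They were also alike over the range of gaps. Weaker intervals whose nearest neighbour was at most 100 bp away numbered 286 and had a median width of 376.5 bp and a median score of 13.8. Those 501 to 1000 bp away numbered 172, with medians of 342.5 bp and 12.4. The lowest median width among the 5 classes of gap was 319.5 bp, for gaps of 301 to 500 bp. Measured from the edge of the strongest interval, the weaker ones lay at a median of 285.5 bp (266 to 315 bp). Within 500 bp of that edge lay 845 of them (66.4%, 63.8 to 69.0%), and within 2000 bp lay 1215 (95.5%). The farthest was 7376 bp away.

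Weaker intervals lay on either side of the strongest about equally often. In order of position, 627 lay before it and 645 after it (50.7%, 47.9 to 53.5%). Those before had a median width of 340 bp and a median score of 13.0, and those after had 368 bp and 13.4, with 95% intervals that overlap for both. In pairs, the strongest interval came first in 308 of 594 regions (51.9%, 47.7 to 55.9%). In regions of 3 it was the middle interval in 77 of 183 (42.1%, 34.8 to 49.6%), first in 52 (28.4%, 22.0 to 35.5%) and last in 54 (29.5%, 23.0 to 36.7%). An even share would be 33.3%, just under the lower bound for the middle place. When the weakest 25% of intervals were left out before joining, the middle share was 34.7%, and it was 25% of 4 regions when only scores above the median were kept. In the 77 regions with the strongest interval in the middle, it had a median width of 2167 bp, and its neighbours had medians of 333 bp before and 366 bp after it. Regions of 4 showed no preferred place, with 18, 16, 15 and 13 of 62 in order of position. The strongest interval had weaker ones on both sides in 125 of the 274 regions with 3 or more intervals. Every place but the first and last gives this, so the count by itself shows no preferred place.

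**Figure D3:**
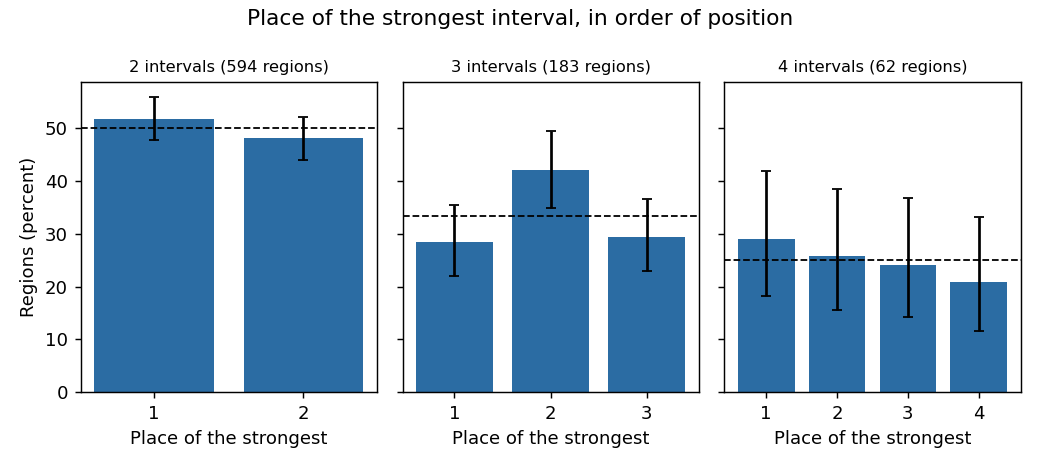
Percent of regions in which the strongest interval held each place, in order of position, for regions of 2, 3 and 4 intervals; error bars are exact 95% intervals and dashed lines mark even shares. The middle place of 3 stands highest at 42.1%, and the 2 places of pairs differ by less than their intervals.

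A minority of regions held several strong intervals. Scores of 100 or more were reached by no interval in 258 regions (29.7%), by 1 in 553 (63.7%), by 2 in 53 (6.11%) and by 3 in 4 (0.46%). The 57 regions with 2 or more such intervals made up 6.57% of all 868 (5.01 to 8.42%). By arm, they were 7 of 205 regions on 3L, 8 of 166 on 2L and 9 of 139 on X. A further 15 of 203 lay on 3R, 17 of 150 on 2R and 1 of 5 on chromosome 4. By size, they were 14 of the 594 pairs, 19 of the 183 regions of 3 and 24 of the 91 with 4 or more. Their 118 strong intervals had a median width of 2637.5 bp (2496 to 2985 bp) and a median score of 286 (244 to 320). Successive strong intervals lay a median of 3975 bp apart from midpoint to midpoint, with a range of 1721 to 8344.5 bp. From edge to edge the median was 661 bp. In 31 of 61 such steps the strong intervals were direct neighbours, and in 30 weaker intervals lay between them. Of the 86 intervals under 100 in these regions, 48 lay between the outermost strong ones and 38 outside.

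The 4 regions with 3 strong intervals differed in how evenly they were filled. The longest region of all, on 2L from 20176668 to 20198482, spanned 21814 bp. Its 4 intervals had scores of 62.04, 624.32, 586.32 and 612 in order of position, and the last 3 were 6173, 6589 and 5712 bp wide. These 3 neighbours thus had nearly level scores, which set them apart from the usual pattern of 1 dominant interval. On 2R, a region from 16113978 to 16125794 had scores of 201.5, 51.34, 671.66, 21.46 and 337.09, so that strong and weak intervals alternated. On 3R, a region of 14594 bp from 27741918 to 27756512 had scores of 302.5, 11.24, 32.63, 286.11 and 562.1. Here a pair of weak intervals stood between the first strong interval and the other 2. The region on 2R starting at 16113978 and the regions of 6 intervals below fall outside the rule for named regions and were added after their values were seen, as were those given as extremes or as equal in score.

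The fourth of these regions was one of the 2 with most intervals. On 2R, the 7 intervals from 9419064 to 9429833 had scores of 15.17, 373.48, 10.28, 21, 513.25, 16.89 and 340.43 in order of position. Its strong intervals, at places 2, 5 and 7, were 1850, 2634 and 1931 bp wide, and the 4 weak ones were 379 to 1312 bp wide. The other region of 7, on X from 19049877 to 19058654, had scores of 24.68, 408.86, 8.19, 11.82, 11.11, 143.18 and 10.76. Its 2 strong intervals of 2641 and 2146 bp were separated by 3 weak ones of 200, 323 and 262 bp. The intervals of the region on 2R covered 87.6% of its span, and those of the region on X covered 78.0%.

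**Figure D4:**
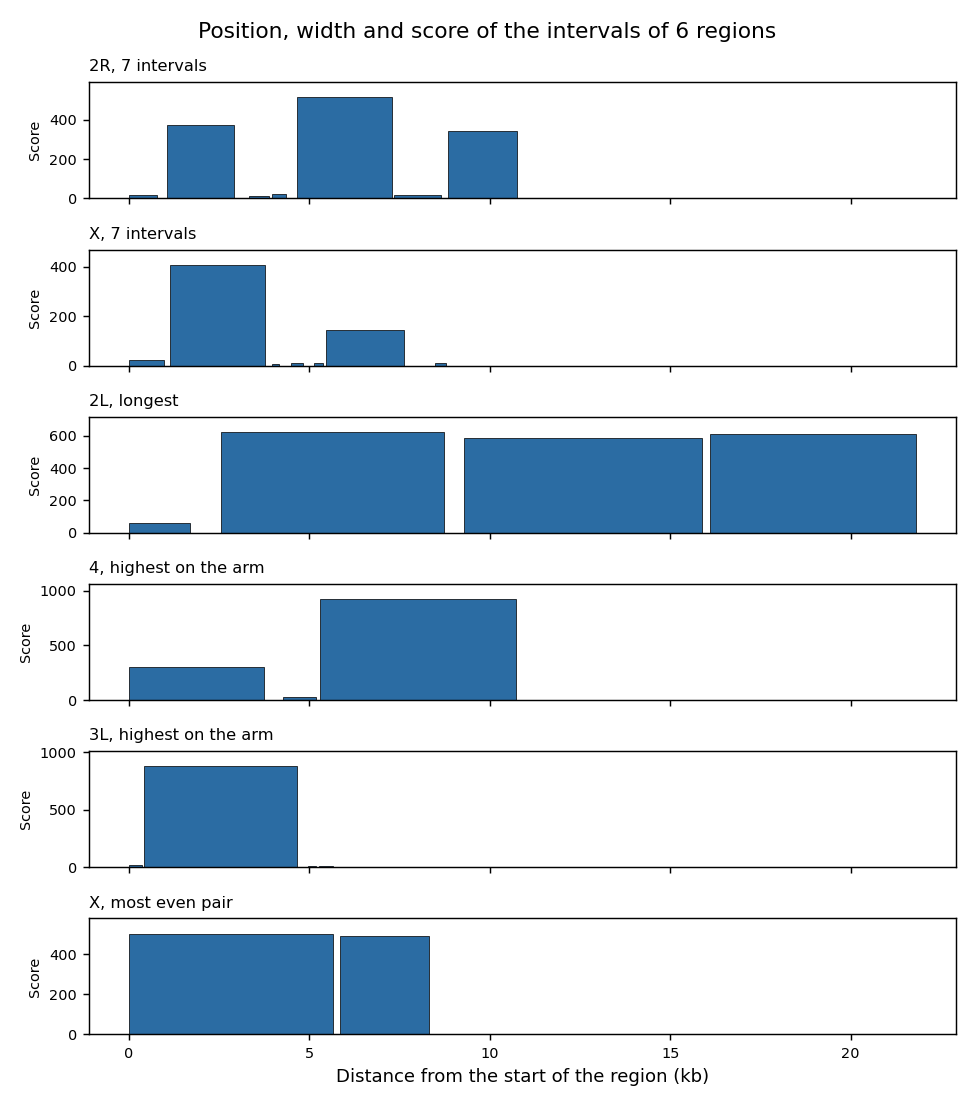
Intervals of 6 regions drawn to scale along the distance from the start of each region (horizontal, kb), with the height of each bar giving the score on a scale of its own per panel. The region on 2R shows 3 strong intervals with scores from 340.43 to 513.25, the longest region on 2L shows 3 level ones, and the region with the highest score on 3L shows 1 broad interval between narrow ones.

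Of the 6 regions with 6 intervals, 4 held a pair of strong intervals and 4 weak ones, with the strong ones at differing places. On 2L, the region from 19560714 to 19567279 had strong intervals at places 1 and 5, with scores of 252.88 and 320.26, and weak ones scoring 7.21 to 12.8. The region on 2L from 12351738 to 12363371 had scores of 233.61 at place 1 and 258.02 at place 4. On 2R, the region from 8289628 to 8298171 had scores of 285.98 at place 2 and 296.45 at place 6. In each of these 3 regions the paired scores were close and 2 or 3 weak intervals stood between them. The remaining regions of 6 were less alike. On 2L, the one from 20243270 to 20252299 had scores of 110.01 and 243.3, and the one from 14102399 to 14108564 had a single score over 100, of 194.14. The one on 2R from 8706934 to 8711976 had none, with a highest score of 49.52.

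The highest scores in regions belonged to intervals with small companions. On 2L the interval from 2854213 to 2856910, with the highest score on the arms (1152.17), was followed after 57 bp by one of 652 bp with a score of 10.77. On 3R the interval from 27281489 to 27288220 (score 1039.64) was followed after 130 bp by one of 232 bp with a score of 11.05. On X the region from 1207937 to 1213105 paired scores of 857.48 and 7.89, and on 2R that from 12494542 to 12499668 paired 14.78 and 830.12. On 3L, 4 intervals from 11514454 to 11520109 had scores of 17.27, 878.76, 8.88 and 9.1. The companions were on the left, on the right or on both sides in these regions. Further regions among the 10 with the highest scores lay on 3L from 1919981 (868.77 beside 14.71), on 3R from 26306307 (835.32 beside 33.4), on 2L from 20864862 (824.85 among 4 intervals) and on 3L from 4236112 (818.92 among 3). In 9 of these 10 regions no other interval scored over 33.4, the exception being that of chromosome 4 described below. Of the 50 highest-scoring intervals on the arms, 28 were members, beside a share of 44.96% over all arm intervals.

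Scores within a region ranged from widely unequal to nearly equal. Among the 610 regions led by a score of 100 or more, the lowest ratio of weakest to strongest score was 0.0090, on 2L from 18104430 to 18112314, where 4 intervals scored 44.95, 719.78, 31.08 and 6.45. On 3L, the region from 7803018 to 7811355, with scores of 809.08, 13.91 and 8.36, had a ratio of 0.010. The most even region was a pair on X from 1088198 to 1096513, with scores of 502.67 and 488.65 (ratio 0.97), although the first interval was 5645 bp wide and the second 2474 bp. It was followed by pairs on 3R from 14717994 to 14721657 (143.18 and 125.87) and on 2R from 18115696 to 18124684 (457.5 and 534.07). The pair on 2R was also even in width, at 4442 and 4482 bp, with 64 bp between the intervals. On 3R the pairs from 2151352 (224.99 and 182.34) and from 14505510 (227.85 and 287.52) completed the 5 most even ones. All 5 were pairs without further members, which this ratio favours, since an added interval can only lower it or leave it unchanged. In 48 of the 610 regions (7.87%, 5.86 to 10.3%) the second interval scored at least 0.5 times the strongest.

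Long regions held either 1 very broad interval or several. After the longest, on 2L, came that of 14594 bp on 3R given above and 3 more on 3R. The region from 18163575 to 18176915 began with an interval of 7325 bp that scored 188.67 and ended with one of 3863 bp that scored 335.97, so the wider of these had the lower score. Between them lay 3 weak intervals of 275 to 628 bp. The region from 16129982 to 16142974 was built the same way, with scores of 308.7 and 430.16 at its ends and 17.18 to 35.81 between them. The region from 12016346 to 12028175 owed its length to 1 interval of 10568 bp, the widest of all members, with a score of 371.3 and a pair of companions scoring 17.35 and 14.82.

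Regions without a strong interval looked different. In the 258 regions led by a score under 100, the second interval had a median of 0.36 times the leading score (0.31 to 0.44), against 0.057 (0.054 to 0.061) in the other 610. A low leading score leaves less room below it, so this difference follows in part from the lower end of the score range, at 6.37 among members. In the 74 regions led by a score under 30, the strongest interval had a median width of 424 bp and the region a median span of 1225 bp. The region with the lowest leading score, on 2L from 3302702 to 3303185, was a pair with scores of 7.88 and 7.01. The highest score was shared by a pair of intervals in 2 regions. On 3L both intervals from 9458705 to 9459510 scored 15.08. On 3R the outer 2 of 4 intervals from 22002951 to 22007233 both scored 91.86, with weak intervals of 13.63 and 15.17 between them.

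Chromosome 4, the small chromosome in which heterochromatic and gene-rich stretches alternate, held 14 members in 5 regions. The region from 426687 to 437426 had scores of 300.44, 23.28 and 923.58, at widths of 3734, 896 and 5454 bp. It was the only region on this chromosome with 2 scores of 100 or more. The region from 507242 to 511983 had scores of 18, 15.96 and 342.35, and that from 959059 to 964875 had 21.46, 247.2, 31.77 and 17.17. Each of these 2 thus had 1 strong interval. A pair from 67649 to 68866 scored 125.06 and 17.17, and a pair from 967036 to 968588 scored 13.26 and 14.01. The 9 weaker intervals had a median width of 668 bp (268 to 896 bp) and a median score of 18 (15.96 to 31.77), against medians of 339.5 to 394 bp and 12.5 to 13.5 on the other 5 arms. With 9 intervals this remains a description of single values.

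The share of intervals in such regions differed somewhat between the arms. It was 50.7% on 3L (47.5 to 53.9%), 47.0% on 2L (43.7 to 50.4%), 44.3% on 2R (41.0 to 47.7%), 42.4% on 3R (39.5 to 45.3%) and 39.9% on X (36.6 to 43.3%). On chromosome 4 it was 56% of 25 intervals (34.9 to 75.6%). Neighbours in the order 3L, 2L, 2R, 3R and X had overlapping intervals, while those of 3L lay above those of 3R and X, and that of 2L above that of X. The bounds treat each interval as independent, although members enter as whole regions. With each region or isolated interval counted once, regions made up 25.9% on 2L (22.6 to 29.5%) and 21.6% on X (18.5 to 24.97%). These bounds overlap. Counted this way, 3L (26.4 to 33.4%) still lay above 3R (20.5 to 26.2%) and X. The separations between shares of intervals did not hold under every setting. With a gap limit of 250 bp, 3L (28.0 to 33.9%) overlapped 3R (24.5 to 29.7%), and 2L (25.1 to 31.1%) overlapped X (22.1 to 28.1%). Among intervals scoring above the median, X had the highest share of the 5 long arms (9.26%) and 2L the lowest (7.45%), and all 5 intervals overlapped. Regions occurred at 8.44 per Mb of occupied span on 3L, at 7.32 to 7.53 per Mb on 2L, 2R and 3R, at 6.21 on X and at 4.33 on chromosome 4. Their make-up was alike on the 5 long arms: the mean number of intervals per region was 2.41 to 2.54, the median gap 208 to 229 bp and the median leading score 185.3 to 232.2. Along the arms, cut into 10 equal parts from the first to the last interval, the share of members ranged from 20.5 to 50% on X, from 31.0 to 58.6% on 2R, from 32.1 to 49.0% on 3R, from 39.1 to 57.0% on 3L and from 40.3 to 57.1% on 2L. The lowest share on the 5 long arms, on X, was in the part with the highest coordinates, where 9 of 44 intervals were members.

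Compared with the isolated intervals, members had a lower median score and a higher upper quartile. The median score was 22.3 for members (20.6 to 25.2) and 40.1 for isolated intervals (37.4 to 42.6), with upper quartiles of 166 and 120. The strongest interval of a region had a median score 5.24 times that of an isolated interval, and 70.3% of these leading intervals scored 100 or more (67.1 to 73.3%) against 28.5% of the isolated ones (26.8 to 30.3%). Choosing the highest of several raises such a value by itself. The factor was 3.59 among intervals scoring above the lower quartile and 1.80 among those above the median. Members contributed 671 of the 1418 intervals with scores of 100 or more (47.3%) and 47.6% of the length covered on the arms, both close to their share of all arm intervals (44.96%). The weaker intervals accounted for 27.6% of the length of the members.

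The share of intervals with a close neighbour fell and rose again along the score. It was 62.6% for scores of 5 to 10 (58.2 to 66.8%), 44.1% for scores of 15 to 20 and 24.7% for scores of 30 to 50 (21.1 to 28.6%). From there it rose to 37.9% for scores of 100 to 200 and to 61.8% for scores of 500 or more (54.7 to 68.6%). The roles changed along the way, as they must in large part, since the leading interval was defined by its score. Of the 318 members scoring 5 to 10, 5 led their region, while of the 123 members scoring 500 or more, 120 did. At like score, the median width of members was above that of isolated intervals in 8 of 10 score classes. For scores of 10 to 15 the medians were 315.5 and 301 bp, for scores of 50 to 100 they were 1147 and 998 bp, and for scores of 300 to 500 they were 2861 and 2550 bp. The exceptions were scores of 5 to 10, with 240 and 242.5 bp, and scores of 500 or more, with 3549 and 3675.5 bp. Gaps run from edge to edge, so width enters the rule that chose the members. These differences in width are therefore not independent of it.

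**Figure D5:**
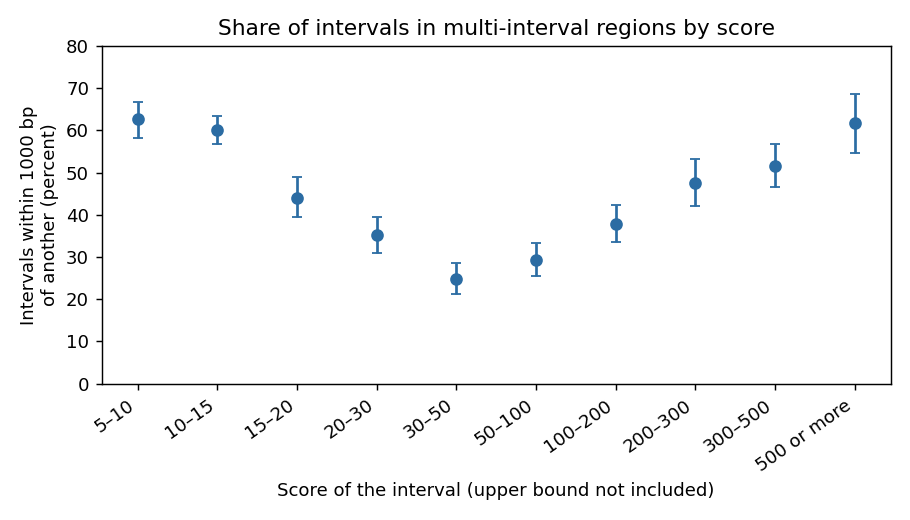
Percent of intervals on the 6 arms that lie within 1000 bp of another (vertical) by the interval's own score (horizontal, 10 classes); error bars are exact 95% intervals. The share is lowest at 24.7% for scores of 30 to 50 and highest at either end, with 62.6% and 61.8%.

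Beyond their own limits, regions also had neighbours. Another interval lay within 5 kb outside the region in 315 of 868 cases (36.3%, 33.1 to 39.6%) and within 5 kb of 772 of the 2620 isolated intervals (29.5%, 27.7 to 31.3%). The median distance to the next interval was 7336 bp for regions (6376 to 7774 bp) and 9573 bp for isolated intervals (9083 to 10057 bp). Since an isolated interval and a region both have, by the rule, no neighbour within 1000 bp, these distances start from the same floor.

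Scores recurred across regions. The 1272 weaker intervals had 631 distinct scores, and the 868 leading ones had 709. The value 10.77 was listed for 27 members and 19 isolated intervals, 8.49 for 23 and 14, and 9.76 for 22 and 18. Such repeats occur in both kinds of interval, and the file does not name the statistic behind the score.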

How the data were processed

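The authors deposited 1 list of intervals for the series, with start, end and a score each. Per the file headers, the intervals came from MACS and the positions refer to FlyBase release 5. Per the submitters' processing notes, MACS2 and BWA were used with BDGP5, and CASAVA in the versions 1.7.0.2 and 1.7.0.3. How libraries were pooled, which input served as control, and which threshold and joining distance applied is not given in the sources used here, and these settings decide how an enriched stretch is divided. The deposited score was used to describe and rank intervals within this list only. Positions are printed as deposited, and starts may count from 0. Width is end minus start.

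Intervals on 6 arms were sorted, and gaps of at most 1000 bp joined them into regions. The gene table at hand is of Release 6, so no gene, motif or sequence is given; the planned motif count was not run. Region building was checked on simulated intervals, with regions set well apart and no tied scores. The check therefore did not cover gaps just beyond the limit or equal leading scores. Members and lists were chosen with earlier results of these data known. Regions named in the text were those with most intervals, the 10 with the highest score, the 5 longest, the 5 with the highest and lowest ratio of weakest to strongest score among regions led by 100 or more, and the highest on each arm. Alternatives were gap limits of 250, 500 and 2000 bp, scores above 14.01 (lower quartile) or 33.7 (median), each arm left out, ranking by width, and midpoint distances. Python 3.11.15, numpy 2.4.6, pandas 2.3.3, scipy 1.17.1 and matplotlib 3.10.9 were used.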

Additional observations from a re-analysis of the deposited data

Results flagged for a closer look

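Sequences outside the 6 arms entered none of the values above, but the same rule finds close neighbours there too. On the Het sequences, made of heterochromatin next to the centromeres, 15 of 32 intervals lay within 1000 bp of another and formed 4 regions, with a median score of 14.8. On the scaffold collection U it was 7 of 27, in 3 regions, with a median score of 73.9. On the mitochondrial genome all 4 intervals formed 1 region. On Uextra none of 170 did. Each of the first 3 counts exceeds 3, and no control level was at hand. In U and Uextra positions follow the order in which scaffolds were joined, so a gap there need not be a distance in the genome.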

How the results depend on the processing

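Leaving out each arm in turn moved none of the 14 summaries beyond its interval (counts: beyond 1.5 times), nor did ranking by width move the 6 that rank intervals. For the counts, leaving out an arm could not do so, as no arm held more than 497 of 2140 members or 205 of 868 regions. The other summaries kept most of their intervals each time. The gap limit of 250 bp gave 1319 members, a median gap of 132.5 bp, a span of 2556 bp, coverage of 94.2% and 65.7% of regions led by 100 or more. With 500 bp the gap was 188 bp, the span 2770.5 bp and coverage 91.2%. With 2000 bp these were 258 bp, 3247.5 bp and 86.2%, the second-to-strongest ratio was 0.117 and the weaker width 373 bp. Midpoints within 1000 bp gave 714 members in 325 regions, since broad intervals cannot have close midpoints. Leaving out low scores changed most: removing weak intervals removes most weaker members by construction. Scores above the lower quartile gave 934 members in 411 regions, medians of 944.5 bp and 43.7 for members, a span of 3258 bp, coverage of 91.3%, strongest also widest in 88.1%, middle place 34.7%, ratio 0.145, 74.2% led by 100 or more, weaker width 578 bp, and leading over isolated score 3.59. Scores above the median gave 198 members in 96 regions, a gap of 305 bp, medians of 1871 bp and 151 for members, a span of 4439 bp, coverage of 92.9%, strongest also widest in 75%, first place in pairs 56.0%, middle place 25% (below an even share, with 4 regions), ratio 0.486, 83.3% led by 100 or more, weaker width 1495 bp, and leading over isolated score 1.80. Shares by arm moved outside their intervals in 27 of 30 cases, and the order of the arms changed. No paired analysis was possible because the intervals carry 1 score for all libraries together, so replicates also could not be dropped. The motif count was not run at any setting. Depth is unknown.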
